A study of Saccharomyces cerevisiae with 12 samples.

Results

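The effect of deleting EUC1 on the yeast transcriptome was set against the effect of the lysine-to-arginine exchange K231R in the Euc1 protein, gene by gene, as the deletion effect minus the K231R effect. All 12 arrays of the series entered this comparison, in 4 groups of 3 biological replicates, and 5581 of the 10928 probe sets, those assigned to a single Saccharomyces cerevisiae gene, were tested. Experiment A held a strain with the complete deletion (euc1∆) and wild-type cells, and experiment B held a strain with the point mutation (euc1-K231R) and wild-type cells of its own, the same wild-type strain being named in both. All cultures grew at 30°C in rich medium with 2% glucose to mid-log phase, and 300.0 ng of total RNA was labelled for GeneChip Yeast Genome 2.0 arrays. Per the study, the euc1-K231R allele carries a URA3 marker, and the marker of the euc1∆ strain is not stated in the text read here, which did not include the study's strain table. Each mutant was measured in 1 experiment only, so the mutant and its experiment cannot be told apart, nor can the amino acid exchange and its marker.

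Euc1 is a DNA-binding protein that sits at ubiquitin hotspots (ub-hotspots), chromosomal sites at which ubiquitylated proteins collect. SUMO is a small protein that is attached to lysines of other proteins, and a SUMO-targeted ubiquitin ligase such as Slx5/Slx8 recognises proteins carrying SUMO and attaches ubiquitin to them, after which the Cdc48 segregase can pull them from chromatin. The lysine exchanged in euc1-K231R is described by the study as the residue that receives SUMO. The comparison asks which transcripts respond differently when the whole protein is lost and when it is made without this SUMO site.

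Levels are log2 values from RMA, and an effect is the mean of 3 mutant arrays minus the mean of the 3 wild-type arrays of the same experiment. The difference between the effects was tested with a linear model over all 12 arrays in limma, and a gene is named as called at an adjusted p under 0.05. Replicate arrays resembled each other, with a Pearson r over genes from 0.996 to 0.999. The array medians were 10.4 to 10.6. The experiments appear to have been normalised in separate runs, so that wild-type levels of experiments A and B are given side by side but were not tested. They lay more than 1 apart for 126 genes (2.26%), 6 of which are among the genes called below. Probe sets for Schizosaccharomyces pombe, which have no target here, had a median of 3.94 and a 95th percentile of 5.25 and serve as the background level. The a-cell genes MFA1, MFA2, STE2 and BAR1 lay between 11.1 and 13.8 on every array. AGA2 and ASG7, also a-cell genes, lay lower, between 10.26 and 10.90 and between 7.96 and 8.77. The alpha-factor gene MF(ALPHA)1 lay between 3.73 and 4.27, at the background level. Of the other alpha-cell genes MF(ALPHA)2 lay between 6.20 and 6.69, STE3 between 7.02 and 7.92 and SAG1 between 9.18 and 9.51, above the background on every array.

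Across the genome the effects of the mutants were weakly correlated. Over 5581 genes they gave a Pearson r of 0.12 and a Spearman rho of 0.05 (genes not being independent of one another). Without EUC1 and URA3 these values were 0.09 and 0.05. Effects of the same sign were found for 2891 genes (51.8%). The difference was called for 70 genes (1.25% of those tested). The deletion effect lay above the K231R effect for 43 of them (0.77%) and below it for 27 (0.484%), a share of 61.4% above, which was 76.3% after each array was centred on its median and 52.9% after joint quantile normalisation. In 62 of the 70 the effects had opposite signs, with 38 higher than wild type in euc1∆ and lower in euc1-K231R and 24 the reverse. Choosing genes by the difference favours effects of opposite sign, so this share follows in part from the choice. The size of the effect was larger in euc1-K231R for 47 genes and larger in euc1∆ for 23. Compared with its own wild type, 7 genes were called in euc1∆ (0.125%) and 50 in euc1-K231R (0.896%). Without single arrays these counts ran from 2 to 21 (the latter without euc1∆ replicate 3) and from 11 (without euc1-K231R replicate 2) to 103 (without euc1-K231R replicate 3). These single-mutant calls came from separate fits over 6 arrays. Of the 70 genes, 24 were also called in euc1-K231R alone, 4 in euc1∆ alone, 1 (EUC1) in both and 41 in neither. The 12-array fit, which gave the difference, called 12 genes in euc1∆ and 124 in euc1-K231R, so these classes depend on the fit.

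**Figure D1:**
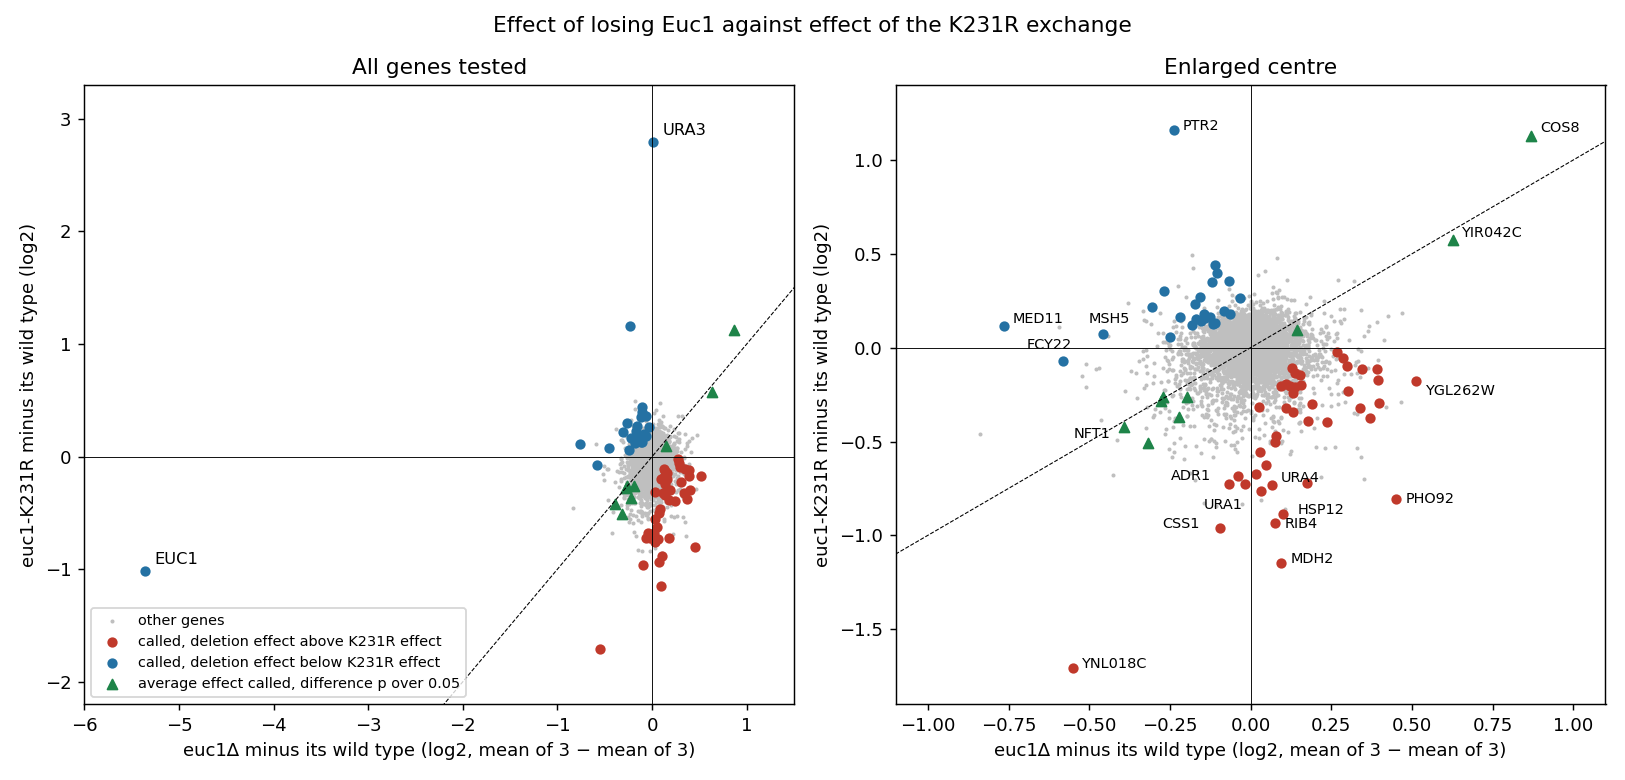
Each point is a gene, with the euc1∆ effect on the x axis and the euc1-K231R effect on the y axis (log2, mean of 3 mutant minus mean of 3 wild-type arrays), for all 5581 genes on the left and enlarged on the right, and the dashed line marks equal effects. The 70 called genes lie off that line, EUC1 and URA3 farthest, and the 9 genes drawn as triangles, COS8 among them, lie near it.

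The number of called genes depended on single arrays. It lay between 21 (without wild-type replicate 2 of experiment A) and 75 (without euc1-K231R replicate 3), and 21 of the 70 genes were called whichever array was left out. In a fit over all probe sets of the array, S. pombe included, 20 genes were called. The gene lists used below were drawn up with earlier results of these data known. Counts of their called members, set beside the share of all genes, are therefore no test of enrichment. The 21 genes that kept the call without each array in turn are described first, with other members of their pathways. They comprise 11 genes with a deletion effect above and 10 with a deletion effect below the K231R effect, 14 of them were called in euc1-K231R, 5 in euc1∆ and 3 (YHB1, PDS5 and GLN1) in neither mutant, and 15 had effects of opposite sign.

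EUC1 itself (YMR111C) differed most. Its levels were 9.02, 9.15 and 9.14 in the wild type of experiment A and 3.72, 3.88 and 3.64 in euc1∆, and 9.18, 9.25 and 9.09 in the wild type of experiment B and 8.19, 8.15 and 8.12 in euc1-K231R. The transcript was thus at the background level in the deletion strain and still present but lower in the point mutant. The deletion effect was -5.36 ± 0.07 (SE) and the K231R effect -1.02 ± 0.05, the latter a 2.02-fold lower level, and their difference was -4.34 (95% interval -4.54 to -4.14, adjusted p = 1.3e-10). Since the euc1∆ arrays lay at or below the S. pombe median, the array background limits the deletion effect and the difference, and their errors cover only the spread between arrays.

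Of the 6 measured genes beside EUC1 only MED11 (YMR112C) was called for the difference, beside 0.484% of all genes called lower. MED11 lies next to EUC1 and encodes a subunit of the Mediator complex. MED11 had levels of 10.35, 10.27 and 10.38 in wild-type cells and 9.52, 9.49 and 9.70 in euc1∆. In experiment B they were 10.33, 10.35 and 10.36 in wild-type cells and 10.45, 10.54 and 10.40 in euc1-K231R, so that the gene fell by 0.76 in the deletion strain and had a value of 0.11 in the point mutant. The difference was -0.88 ± 0.08 (SE, adjusted p = 0.00018). Of the 24 measured Mediator genes it was the only one called, beside 0.484% of all genes called lower. The median difference of that list was -0.0026 and changed sign between scalings. HFD1, the neighbour of EUC1 on its other side, had a difference of 0.14 (95% interval -0.03 to 0.32, adjusted p = 0.40), and the other 4 neighbours had differences from -0.12 to 0.17.

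Of the called genes, URA3 had the largest difference after EUC1, and further genes of the pyrimidine pathway were called. URA3, orotidine-phosphate decarboxylase, had levels of 8.36, 8.54 and 8.51 in wild-type cells and 8.46, 8.52 and 8.48 in euc1∆. In experiment B the levels were 8.66, 8.73 and 8.57 in wild-type cells and 11.41, 11.45 and 11.48 in euc1-K231R, a 6.93-fold higher level in the strain whose allele carries the URA3 marker. The difference was -2.78 ± 0.08 (SE, adjusted p = 1.1e-09). The control probe sets named for URA3, which were not among the genes tested, gave differences of -3.41 (5′ part), -2.80 (middle) and -2.49 (3′ part). Means of the 5′ set were 5.07 in the wild type and 5.26 in euc1∆, near the background level. In experiment B they were 7.31 in the wild type and 10.91 in euc1-K231R.

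URA1 and URA4, which encode dihydroorotate dehydrogenase and dihydroorotase, the enzymes of steps before that of Ura3, moved the other way. URA1 had levels of 14.001, 14.03 and 14.05 in wild-type cells and 14.06, 14.06 and 14.07 in euc1∆, against 14.38, 14.36 and 14.42 in wild-type cells and 13.59, 13.67 and 13.62 in euc1-K231R. It fell by 0.76 in the point mutant and had a value of 0.03 in the deletion strain, a difference of 0.80 ± 0.05 (SE, adjusted p = 4.0e-06). URA4 had levels of 13.40, 13.39 and 13.39 in wild-type cells and 13.48, 13.49 and 13.41 in euc1∆, and of 13.66, 13.61 and 13.69 in wild-type cells and 12.95, 12.95 and 12.86 in euc1-K231R. All 3 euc1-K231R arrays lay below their wild type for both genes, and the URA4 difference was 0.80 ± 0.05 (SE, adjusted p = 1.2e-05). URA2, whose product catalyses the first steps of the pathway, had a difference of 0.26 in the same direction (adjusted p = 0.083), and URA6 one of 0.17. Of 9 measured pyrimidine genes 2 were called with a higher and 1 with a lower deletion effect (beside 0.77% and 0.484% of all genes), and the median difference was 0.05, beside -0.00074 over all genes.

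RIB4, lumazine synthase of riboflavin synthesis, had the smallest adjusted p after EUC1 and URA3. Its levels were 13.29, 13.29 and 13.34 in wild-type cells and 13.38, 13.41 and 13.36 in euc1∆. In experiment B they were 13.61, 13.65 and 13.64 in wild-type cells and 12.73, 12.70 and 12.67 in euc1-K231R. The gene was 1.91-fold lower in the point mutant and 1.05-fold higher in the deletion strain, where it was not called (adjusted p = 0.42), and the difference was 1.01 ± 0.05 (SE, adjusted p = 3.0e-07). Of the 8 measured genes of riboflavin and flavin cofactor synthesis RIB4 was the only one called, beside 0.77% of all genes called higher. RIB5, riboflavin synthase, had a difference of 0.23 (adjusted p = 0.054) and FAD1, which makes FAD, one of 0.25 (adjusted p = 0.18), and 7 of the 8 differences lay above 0 with a median of 0.09.

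MDH2, the cytosolic malate dehydrogenase of gluconeogenesis, showed a similar pattern. Its levels were 12.57, 12.63 and 12.57 in wild-type cells and 12.69, 12.71 and 12.65 in euc1∆, and 12.92, 13.09 and 13.02 in wild-type cells and 11.97, 11.92 and 11.71 in euc1-K231R. It was 2.21-fold lower in the point mutant, and the difference was 1.24 ± 0.09 (SE, adjusted p = 2.4e-05). ADR1, an activator of genes for the use of nonfermentable carbon sources, fell by 0.72 in euc1-K231R and had a value of -0.07 in euc1∆ (difference 0.66, adjusted p = 0.0037). PCK1, phosphoenolpyruvate carboxykinase, was called with a difference of 0.57 (adjusted p = 0.035), although neither its value in euc1-K231R (-0.39) nor that in euc1∆ (0.18) passed, and its call was kept without only 2 of the 12 arrays. Of 25 measured genes of gluconeogenesis and alternative carbon use these 3 were called, all higher, beside 0.77% of all genes. The median of the list was 0.06 and turned to -0.01 when the 12 arrays were quantile-normalised together, so the list as a whole had no settled direction. In the citric acid cycle, LSC2 (0.34, succinyl-CoA ligase) and ACO1 (-0.24, aconitase) were called in opposite directions among 17 genes. Of all genes, 0.77% were called higher and 0.484% lower. LSC2 and ACO1 kept the call in 4 and 2 of the 12 fits without 1 array.

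The peptide transporter gene PTR2 differed in the reverse direction. PTR2, the transporter of di- and tripeptides, had levels of 11.80, 11.88 and 11.90 in wild-type cells and 11.55, 11.65 and 11.67 in euc1∆. In experiment B its levels were 11.35, 11.70 and 11.35 in wild-type cells and 12.69, 12.57 and 12.62 in euc1-K231R, a rise of 2.24-fold, and the difference was -1.40 ± 0.12 (SE, adjusted p = 7.6e-05). AAP1, an aminopeptidase, had a difference of -0.50 (adjusted p = 0.012), with a rise by 0.40 in the point mutant and a value of -0.10 in the deletion strain. These were the only 2 called of 10 measured genes in the peptide uptake list, both lower, beside 0.484% of all genes. The list was drawn up with earlier results of these data known. The others had differences between -0.33 and 0.07, and CUP9 and UBR1, which encode the repressor of PTR2 and the ubiquitin ligase that degrades it, had differences of -0.0036 and -0.17. Among amino acid genes GLN1, glutamine synthetase, had the smallest error of the called genes. It lay between 13.70 and 13.74 in the wild type and between 13.85 and 13.87 in euc1∆, and between 13.84 and 13.86 in the wild type and between 13.70 and 13.73 in euc1-K231R, a difference of 0.27 ± 0.04 (SE, adjusted p = 0.012). It was the only called gene of 53 in amino acid synthesis, beside 0.77% of all genes called higher. The permeases GAP1 (0.64) and AGP1 (0.58), singled out after their values were seen, fell in euc1-K231R and had values of -0.04 and 0.08 in euc1∆. Each kept the call of the difference in 7 of the 12 fits without 1 array.

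Genes called in euc1∆ form the other side of the comparison. MSH5, a MutS homologue of meiotic crossing-over, had levels of 9.05, 9.18 and 9.05 in wild-type cells and 8.65, 8.58 and 8.68 in euc1∆, and between 8.81 and 8.99 on the 6 arrays of experiment B. It fell by 0.46 in the deletion strain and had a value of 0.07 in the point mutant, a difference of -0.53 ± 0.07 (SE, adjusted p = 0.0049). FCY22, of the purine-cytosine permease family, fell by 0.58 in euc1∆ and had a value of -0.07 in euc1-K231R (difference -0.51, adjusted p = 0.012). YGL262W, an open reading frame without an assigned role here, had levels of 5.86, 5.80 and 5.80 in wild-type cells and 6.44, 6.30 and 6.27 in euc1∆. In experiment B all 6 of its values, from 3.64 to 4.05, lay under the S. pombe value of 5.25, so the K231R effect of this gene was measured at the background level. With EUC1 and MED11 these were the genes called for the difference and, in the 6-array fit, in euc1∆.

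Of 14 genes that the study's tables mark as next to ub-hotspots, which may not be all such genes, 1 was called for the difference (beside 1.25% of all genes), SDD2. Its levels were 12.37, 12.27 and 12.32 in wild-type cells and 12.23, 12.30 and 12.23 in euc1∆, and 12.16, 12.29 and 12.16 in wild-type cells and 12.53, 12.59 and 12.56 in euc1-K231R. It rose by 0.36 in the point mutant and had a value of -0.07 in the deletion strain (difference -0.42 ± 0.06, SE, adjusted p = 0.011). SSF2, which acts in the maturation of the large ribosomal subunit, lay below wild type in both mutants. Its levels were 10.45, 10.26 and 10.38 in wild-type cells and 9.38, 9.44 and 9.76 in euc1∆, and 10.49, 10.35 and 10.35 in wild-type cells and 9.85, 9.95 and 9.998 in euc1-K231R, with no overlap in either experiment. Its average effect was called (-0.65, adjusted p = 0.00035) and its difference was not (-0.38, adjusted p = 0.18, 95% interval -0.66 to -0.09). ATG19, a receptor of selective autophagy, had an average effect of 0.30 that was called and a difference of 0.26 that was not (adjusted p = 0.25). The call of its average was kept in only 2 of the 12 fits without 1 array. The differences of the other 11 hotspot genes ran from -0.12 (ADH3) to 0.47 (PEX9, at levels of 4.57 to 5.51, close to the background). The median of the 14 differences was 0.05 and turned to -0.0028 after joint quantile normalisation. An unadjusted p of the difference under 0.05 was found for 7 of the 14, beside 935 of 5581 genes. In the 6-array fit of euc1-K231R 1 of the 14 was called higher and 2 lower, beside 0.896% of all genes called in either direction.

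The remaining genes that kept the call have varied roles. YHB1, a flavohaemoglobin that detoxifies nitric oxide, lay between 12.94 and 13.00 in euc1∆ and between 13.10 and 13.16 in its wild type, and between 13.60 and 13.71 in euc1-K231R and between 13.37 and 13.44 in its wild type. Neither effect was called alone in the 6-array fits (-0.16 and 0.27), and the difference was -0.43 ± 0.06 (SE, adjusted p = 0.0049). PDS5, a cohesin-associated protein, had the same pattern, with effects of -0.17 and 0.23 (difference -0.40, adjusted p = 0.011). YNL018C lay below wild type in both mutants, with effects of -0.55 in euc1∆ (not called, adjusted p = 0.11) and -1.71 in euc1-K231R (adjusted p = 0.00071), so its difference of 1.16 ± 0.16 (SE) is one of degree, and its euc1-K231R values of 4.94 to 5.38 were near the background level. YNL018C has a near-identical copy, YNL034W, and their signals cannot be told apart with certainty. A probe set of YNL034W among the genes tested was not called for the difference. Its average effect of -0.49 was called (adjusted p = 0.042), a call kept in 5 of the 12 fits without 1 array. CSS1 fell by 0.96 in euc1-K231R and had a value of -0.10 in euc1∆ (difference 0.87, adjusted p = 0.0036), with wild-type levels of 6.47 in experiment A and 8.65 in experiment B. MCH4, of the monocarboxylate permease family, and ORM2, a regulator of sphingolipid synthesis, fell by 0.32 and 0.35 in euc1-K231R and had differences of 0.43 and 0.48. These last genes were outside the rule for naming genes and were chosen after their values were seen.

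**Figure D2:**
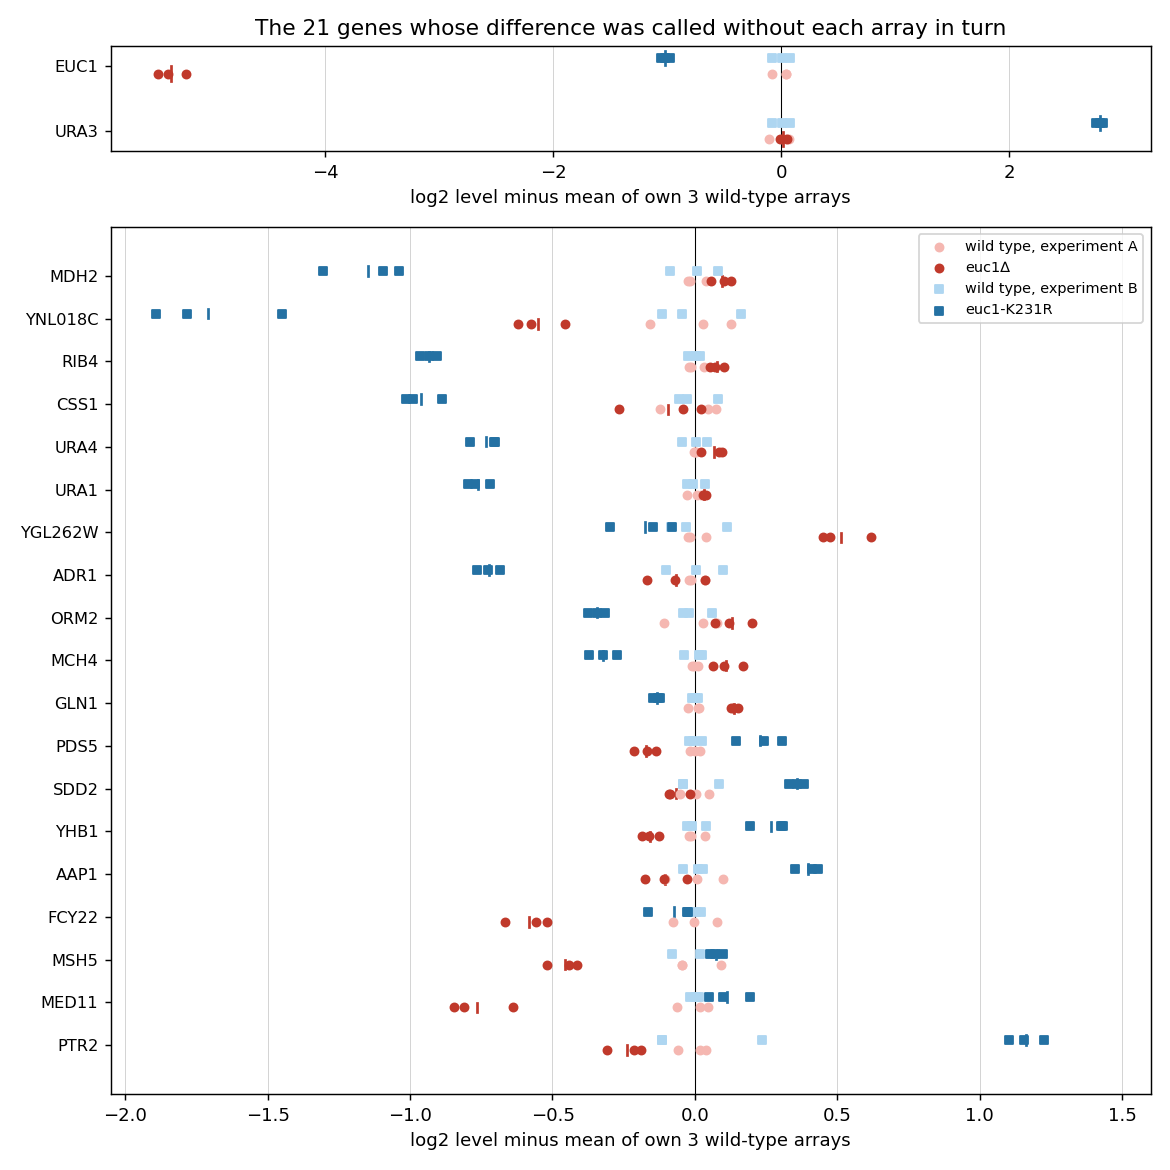
For the 21 genes called without each array in turn, each array's log2 level minus the mean of the 3 wild-type arrays of its experiment is shown on the x axis, with circles for experiment A, squares for experiment B and short lines for the mutant means. EUC1 and URA3 have an axis of their own, and in every gene the 3 euc1∆ arrays lie apart from the 3 euc1-K231R arrays.

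Such separation was frequent. For all 70 called genes the deviations of the 3 euc1∆ arrays from their wild-type mean did not overlap those of the 3 euc1-K231R arrays, and the same held for 1895 of all 5581 genes (34%).

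The other 49 called genes lost the call without at least 1 array. Among them were 3 of 41 measured general stress genes, all with a deletion effect above the K231R effect, beside 0.77% of all genes. HSP12, a membrane-associated stress protein, had levels of 11.04, 10.78 and 11.06 in wild-type cells and 11.21, 11.15 and 10.83 in euc1∆, and of 12.37, 12.77 and 12.31 in wild-type cells and 11.71, 11.61 and 11.47 in euc1-K231R. The euc1-K231R arrays lay below their wild type and the euc1∆ arrays overlapped theirs, and the difference was 0.98 ± 0.19 (SE, adjusted p = 0.033). SIP18, a hydrophilin of desiccation tolerance, had a difference of 0.90 and HSP26, a small heat shock protein, one of 0.75, with adjusted p = 0.033 for each. These 3 calls were kept in 4, 6 and 5 of the 12 fits without 1 array. PHO92, a reader of methylated adenosine in mRNA, had a difference of 1.26 but levels of 4.15 to 5.43 throughout, close to the background. In iron uptake FRE4, a ferric reductase, was the called gene of 24 (0.69, adjusted p = 0.049). In autophagy ATG33 (0.29) was that of 26, and both were higher, beside 0.77% of all genes. In the respiratory chain CYC1, cytochrome c, was called (-0.32), 1 of 30 genes, beside 0.484% of all genes called lower. FRE4 and ATG33 each kept the call in 1 of the 12 fits without 1 array, and CYC1 in 3. AQR1 (0.71), a transporter that excretes amino acids, GPG1 (0.68) and CDA1 (0.69), a chitin deacetylase, had higher deletion effects. ICS2 (-0.55), ADH7 (-0.52), RRT5 (-0.47) and HO (-0.38) had lower ones. RRT5 lay between 4.94 and 5.22 in experiment A and between 8.34 and 8.86 in experiment B, so its deletion effect was measured at the background level.

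Genes of meiosis and sporulation were called in both directions, as 1 of 36 was higher (beside 0.77% of all genes), HOP1 of the meiotic chromosome axis (0.58), and 2 were lower (beside 0.484%), MSH5 and the sporulation gene SPS4 (-0.57). The median of the list was 0.14, with 27 of 36 differences above 0, and 12 of the 36 genes had at least 1 group mean under the background percentile. Joint quantile normalisation brought the median to 0.04.

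The lists of functions otherwise differed by small shifts. Genes of the G1/S transition and DNA replication had a median difference of -0.15, and all 32 differences were below 0, although none was called (16 had an unadjusted p under 0.05, beside 935 of 5581 genes). MCM3, of the replicative helicase, had levels between 10.22 and 10.27 in euc1∆ and between 10.26 and 10.36 in its wild type, and between 10.65 and 10.72 in euc1-K231R and between 10.50 and 10.55 in its wild type (difference -0.23, adjusted p = 0.075). RNR1, the large subunit of ribonucleotide reductase, and RFA1, of the single-strand binding complex, had differences of -0.29 and -0.22 (adjusted p = 0.088 and 0.093), and the S-phase cyclin CLB5 one of -0.24. The median effect of the list was -0.04 in euc1∆ and 0.13 in euc1-K231R. Per array, the list mean minus its wild-type mean was -0.08, -0.01 and -0.02 in euc1∆ and 0.11, 0.16 and 0.10 in euc1-K231R. The arrays of the mutants thus did not overlap, as in several other lists, sulfur and methionine among them. The median stayed between -0.16 and -0.14 under each scaling.

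The 14 silencing genes had a median difference of -0.10, with 12 below 0 and none called. DOT1, the histone H3 methyltransferase, had a difference of -0.20, ESC1, an anchor of silent chromatin at the nuclear envelope, one of -0.25, and the histone chaperone ASF1 one of -0.16. The H2A.Z and SWR1 list (14 genes, median -0.05) and the Rpd3 and Set2 list (14 genes, median -0.07) had medians below 0, none of their genes being called. SWR1 itself had a difference of -0.18. In the Rpd3 and Set2 list 5 of the 14 differences were above 0, UME1 (0.21) and RXT3 (0.13) among them, and SET2 and SIN3 had differences of -0.23 and -0.20. Of 20 genes of the SUMO and Cdc48 pathways none was called, and the median was -0.03, with 7 differences above 0. MMS21, a SUMO ligase gene, had the difference of largest size in the list (0.39, adjusted p = 0.30). UBA2, a subunit of the SUMO-activating enzyme, had a difference of -0.29, the SUMO ligase gene SIZ1 one of -0.21 and SLX5 one of -0.14.

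In purine synthesis the 3 euc1∆ arrays lay close together above their wild type. The median difference was 0.11, and 14 of 19 genes lay above 0. Only MTD1 of one-carbon metabolism was called (0.34, adjusted p = 0.033), beside 0.77% of all genes called higher. Its call was kept in 1 of the 12 fits without 1 array. MTD1 had levels of 11.56, 11.58 and 11.58 in wild-type cells and 11.93, 11.90 and 11.76 in euc1∆, and between 12.20 and 12.32 on the arrays of experiment B. ADE17 and ADE1 had differences of 0.30 and 0.22 (adjusted p = 0.057 and 0.070). The list mean minus its wild-type mean was 0.12, 0.11 and 0.10 on the euc1∆ arrays and -0.0045, 0.02 and -0.02 on the euc1-K231R arrays.

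Ribosome biogenesis had a median difference of -0.08, with 2 of 51 genes above 0 and none called. The euc1∆ arrays did not agree, as the list mean minus its wild-type mean was -0.20 and -0.14 on replicates 1 and 2 and 0.04 on replicate 3. It was -0.03, -0.0017 and -0.01 on the euc1-K231R arrays. General stress genes ran opposite on the same arrays, with 0.26, 0.05 and -0.16 in euc1∆ and -0.07, -0.13 and -0.19 in euc1-K231R, and chaperones with 0.19, 0.13 and -0.12 in euc1∆ and 0.07, 0.11 and 0.10 in euc1-K231R. The euc1∆ arrays thus spanned those of euc1-K231R in ribosome biogenesis and chaperones. Without euc1∆ replicate 3, 66 genes were called for the difference, 49 of them among the 70. Ribosomal protein genes had a median of 0.04, and none of 121 was called. None of 18 glycolytic, 33 proteasome, 27 chaperone, 25 ergosterol, 15 G2/M or 22 pheromone response genes was called, and the medians of these lists were between -0.04 and 0.03, those of the glycolytic, proteasome, G2/M and pheromone response lists changing sign between scalings.

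**Figure D3:**
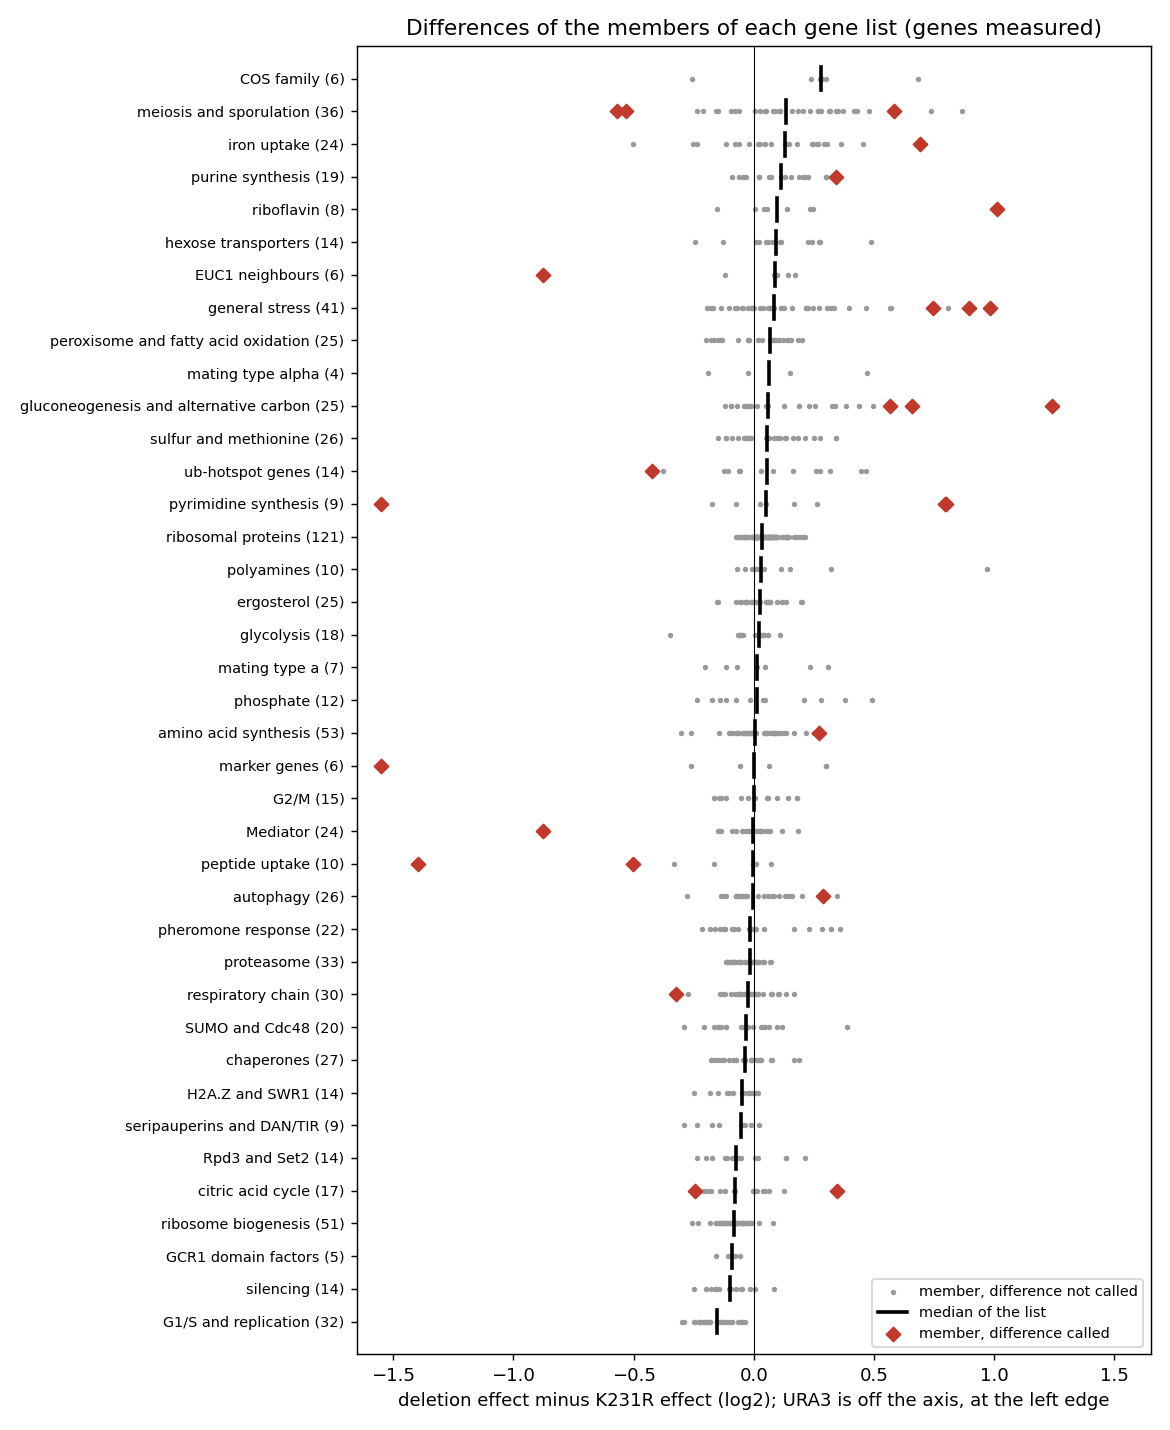
For 39 gene lists, ordered by median, each point is the deletion effect minus the K231R effect of 1 member (log2, x axis), diamonds mark called members and the black line the median. The medians run from -0.15 (G1/S and replication) to 0.28 (COS family), and called members are scattered over lists whose medians are near 0. URA3 (-2.78) lies off the axis and is drawn at its left edge.

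**Figure D4:**
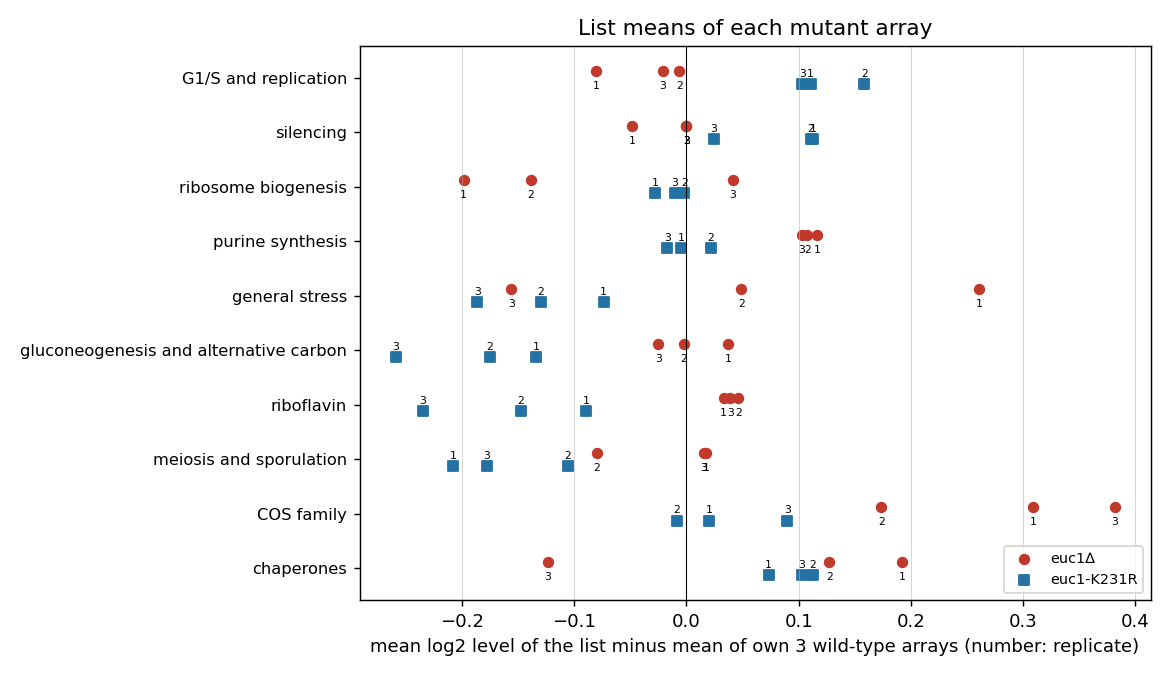
For 10 lists the mean log2 level on each mutant array minus the mean of its 3 wild-type arrays is shown on the x axis, with circles for euc1∆, squares for euc1-K231R and the replicate number beside each point. The arrays of the mutants overlap in ribosome biogenesis, general stress and chaperones, where the euc1∆ circles are spread widely, and do not overlap in the other 7 lists. These 10 lists were picked from 39, so their share without overlap is not that of all lists. Of those not drawn, EUC1 neighbours, marker genes, pyrimidine synthesis, sulfur and methionine, H2A.Z and SWR1, and seripauperins and DAN/TIR do not overlap either. Nor do polyamines, peptide uptake and GCR1 domain factors, and all other lists not drawn overlap.

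The average of both effects was called for 32 genes (0.573%), 8 higher and 24 lower, and 9 of these had effects of the same sign and an unadjusted p of the difference over 0.05. The count of 32 rose to 143 without euc1∆ replicate 3 and to 140 without euc1-K231R replicate 3, and was 19 without wild-type replicate 2 of experiment A. COS8, of the subtelomeric COS family whose proteins act in the sorting of membrane proteins, was the only gene besides EUC1 called in both mutants. Its levels were 10.09, 10.24 and 10.10 in wild-type cells and 11.05, 10.998 and 10.98 in euc1∆, and 8.39, 8.78 and 8.30 in wild-type cells and 9.66, 9.59 and 9.60 in euc1-K231R. Each mutant array lay above every wild-type array of its experiment, with effects of 0.87 and 1.13, an average of 1.00 (adjusted p = 1.4e-05) and a difference of -0.26 (95% interval -0.57 to 0.05). No other COS gene was called for the average, COS12 having effects of 0.47 and 0.19 (average 0.33, adjusted p = 0.078). COS10, COS9, COS6, COS12 and COS111 had differences of 0.68, 0.24, 0.30, 0.28 and 0.28, none called, and COS10 had effects of 0.33 and -0.36. COS genes are similar in sequence, and part of the signal of a probe set may come from relatives.

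The ABC transporter genes PDR18 and PDR11, whose products act on sterols, lay below wild type in both mutants. PDR11 had the identical value 9.002 on each of the 3 wild-type arrays of experiment A and levels of 8.79, 8.75 and 8.66 in euc1∆. In experiment B its levels were 9.25, 9.38 and 9.28 in wild-type cells and 9.16, 9.02 and 8.94 in euc1-K231R. Its effects were -0.27 and -0.26, with an average adjusted p of 0.012 and a difference of -0.01 (95% interval -0.19 to 0.17). PDR18 had effects of -0.32 and -0.51 and a difference of 0.19 (95% interval -0.05 to 0.43), at levels of 5.39 to 6.11. XRS2, of the Mre11 complex of DNA break repair, had levels of 9.18, 9.28 and 9.22 in wild-type cells and 8.99, 8.92 and 8.94 in euc1∆, and of 9.15, 9.02 and 8.87 in wild-type cells and 8.62, 8.78 and 8.79 in euc1-K231R. Its effects were -0.28 in each, and the interval of the difference was -0.21 to 0.22. NFT1, an ABC transporter gene, and YKR104W, which lies beside it on chromosome XI, each had a called average effect below 0, with single effects that were not called, of -0.39 and -0.42 for NFT1 and -0.20 and -0.26 for YKR104W.

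YIR042C had effects of 0.63 and 0.57, but its wild-type levels were 8.87, 8.69 and 8.64 in experiment A and 5.84, 6.06 and 5.25 in experiment B, and the interval of the difference was wide (-0.44 to 0.55). YIM1 (average 0.12) and the peroxisomal import gene PEX18 (average -0.30, adjusted p = 0.04996), whose levels of 4.55 to 5.34 were close to the background, completed the list. COS8, PDR18 and PDR11 kept the call of the average without each array in turn, as did SSF2. XRS2 and YKR104W kept it in 5 of 12 such fits each, NFT1 and YIR042C in 4 each, and YIM1 and PEX18 in 3 each.

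**Figure D5:**
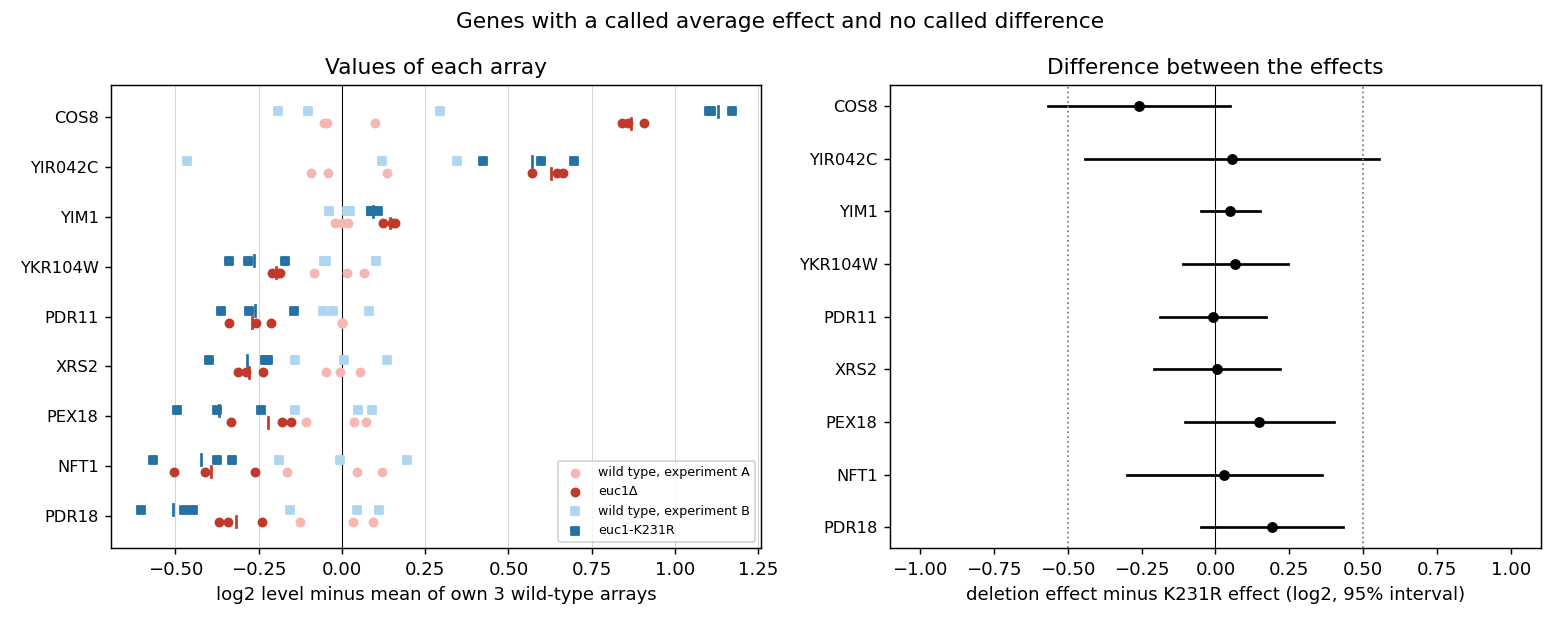
For the 9 genes with a called average effect, effects of the same sign and an unadjusted p of the difference over 0.05, the left panel shows each array's log2 level minus the mean of its 3 wild-type arrays and the right panel the difference between the effects with its 95% interval, dotted lines marking 0.5 either side of 0. The intervals of COS8 and YIR042C cross a dotted line, and those of the other 7 genes lie within them.

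A difference that was not called does not show that the mutants act alike, so the intervals were counted. The 95% interval of the difference lay within 0.5 either side of 0 for 4975 genes (89.1%) and within 0.25 for 2461 (44.1%), with a median standard error of 0.08. Among the lists, all 51 ribosome biogenesis, 33 proteasome, 53 amino acid synthesis, 25 ergosterol, 19 purine, 14 silencing and 15 G2/M genes had an interval within 0.5, whereas 7 of 14 ub-hotspot genes, 1 of 6 COS genes, 22 of 41 general stress genes and 18 of 36 meiosis genes did.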

How the data were processed

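RNA of 12 samples labelled biological replicates was measured on 3′ arrays. The authors deposited log2 values from RMA, the method their processing notes name together with limma, without versions. The authors also deposited comparison tables of fold changes and p-values, of which only the gene name column was used. Arrays of different experiments shared 0 exact values and arrays of 1 experiment at least 42, from which separate normalisation runs were inferred. Of 10928 probe sets 5713 were S. cerevisiae, 132 of which match several transcripts and were left out. Names came from a RefSeq table of assembly R64, in which 5564 of 5581 genes were found.

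limma 3.58.1 in R 4.3.3 fitted 4 group means over 12 arrays, and each mutant against its wild type over 6 arrays. The Benjamini-Hochberg adjustment ran over all 5581 genes, calls were made at an adjusted p under 0.05, and the script was tested on simulated data. The number of arrays, 3 per group, limits precision. Named were up to 15 called genes in each direction, up to 12 agreeing genes, EUC1, its neighbours, hotspot and marker genes, and up to 4 members per list with the smallest p. The members and lists were chosen with earlier results of these data known. Alternatives were a trended robust prior, median centring, joint quantile normalisation, no dim genes, all probe sets, multi-transcript sets, array weights, a replicate block and leaving out each array. The count of bounded intervals under them was added after seeing the data. Figures used matplotlib 3.10.9 in Python 3.11.15.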

Additional observations from a re-analysis of the deposited data

Results flagged for a closer look

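The effects of euc1∆ and euc1-K231R on a named gene drew attention where the test of their difference itself passed. Among genes called without each array in turn, the deletion effect minus the K231R effect (log2) was EUC1 (-4.34), URA3 (-2.78), RIB4 (1.01), URA1 (0.80), URA4 (0.80), MDH2 (1.24), PTR2 (-1.40), MED11 (-0.88), CSS1 (0.87), ADR1 (0.66), MSH5 (-0.53), YHB1 (-0.43), YNL018C (1.16), YGL262W (0.69), PDS5 (-0.40), SDD2 (-0.42), FCY22 (-0.51), AAP1 (-0.50) and GLN1 (0.27). Among named genes that lost the call without at least 1 array, it was above 0 for PHO92 (1.26), LSC2 (0.34), SIP18 (0.90), HSP26 (0.75), HSP12 (0.98), MTD1 (0.34), HOP1 (0.58), ATG33 (0.29), PCK1 (0.57), CDA1 (0.69), GPG1 (0.68), FRE4 (0.69) and AQR1 (0.71). It was below 0 for ICS2 (-0.55), CYC1 (-0.32), HO (-0.38), ADH7 (-0.52), SPS4 (-0.57), ACO1 (-0.24) and RRT5 (-0.47).

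Probe sets that match several transcripts entered no comparison above, and with them in the fit 5 were called for the difference. They are labelled THI13 (0.31), FEX1 (0.49), YNL034W (1.64), IMD2 (-1.06) and YAR073W (-1.25). FEX1 and FEX2, IMD2 and YAR073W, and YNL034W and YNL018C are near-identical copies, so which copy gave the signal is uncertain.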

How the results depend on the processing

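Of the 5581 genes, 70 were called for the difference, 43 higher and 27 lower. In a fit over all probe sets these counts were 20, 10 and 10, and median centring gave 74 higher (76.3% of calls, beside 61.4%). Without 1 array the counts ran from 21 to 75, from 11 to 45 and from 10 to 36. The average effect was called for 32 genes, for 49 with a trended robust prior, for 18 over all probe sets and for 19 to 143 without 1 array. The deletion was called for 7 genes, for 20 with the trended prior, for 2 over all probe sets, for 12 in the 12-array fit and for 2 to 21 without 1 array. For euc1-K231R 50 genes were called, 110 after median centring, 13 over all probe sets, 124 in the 12-array fit and 11 to 103 without 1 array. The all-set fit adjusts over more tests and shares its estimate of the spread over more probe sets. The cause of these shifts was not tested.

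Whether replicate numbers pair the samples was not settled. Deviations of same-numbered arrays correlated at -0.20, 0.11 and -0.21 in experiment A and at -0.22, -0.09 and 0.30 in experiment B. Those of differently numbered arrays ran from -0.36 to 0.41, and 3 arrays per group are too few to decide. With the replicate number as a block 21 genes were called for the difference (15 higher, 6 lower, 71.4% higher), 19 of them among the 70, with 16 for the average, 1 for euc1∆ and 27 for euc1-K231R.

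No called gene changed sign without 1 array, and 14 of the 70 kept the call in every setting run. The count of intervals within 0.5 of 0, an alternative set chosen after seeing the data, stayed between 4846 and 5062 genes. Values of dim genes are limited by the background, and of all genes by 3 arrays per group.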
